A study of Homo sapiens with 9 samples.

Results

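The genes described here are 40 human genes, of which 38 act in ribosome biogenesis and 2 are MYC and MYCN, transcription factors that are known to drive it. They were taken by name from a list of nucleolar processing factors, RNA polymerase I subunits and regulators, TCOF1 and the MYC genes. All 40 were found among the 25593 loci of each expression table, and all 40 were among the 13216 genes that could be tested. The cells came from the line H9 of human embryonic stem cells, which was differentiated towards neural crest and then expanded in 3 media. RNA from 3 cultures per medium, 9 libraries in all, was sequenced, and levels are given as FPKM (fragments scaled to transcript length and to the mapped fragments of the library).

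Every culture had received 10 µM SB431542, which inhibits type I receptors of the TGF-β, Activin and Nodal pathways, for 6 days of differentiation. Group F was then expanded with the growth factor FGF2 (5 to 10 ng/ml) and no SB431542. Group FSB was expanded with FGF2 and 3 to 5 µM SB431542. Group F_FSB came from FSB cultures that were divided after 4 passages, and it then spent 3 passages in F medium. All groups were grown under 5% oxygen and harvested at passage 6 to 7. All came from 1 cell line, so the p-values measure the spread between cultures of that line. The growth protocol sorts cells that are CD271 high and CD73 negative, while the cell type label of the samples names both markers as positive. Rose and fell compare groups of cultures here, since no library was made before expansion.

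Ribosome biogenesis starts in the nucleolus, where RNA polymerase I transcribes the long precursor of the ribosomal RNAs. Guide RNA particles of the box C/D and H/ACA types modify that precursor, and large sets of assembly factors cut and fold it into the 40S and 60S subunits. MYC and MYCN bind DNA as partners of MAX at E-box sequences such as CACGTG, and genes of ribosome production are among their best known targets. The process has a particular link with neural crest, because mutations of TCOF1, POLR1B, POLR1C and POLR1D cause Treacher Collins syndrome, in which the facial skeleton that derives from neural crest is underdeveloped.

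The canonical E-box CACGTG, which reads the same on both strands, was searched in the RefSeq promoters of the members (build GRCh38.p14, 250 bases before to 50 bases after each start). Of the 40 members, 31 had an entry, and 14 of these (45.2%) held the motif, against 8.77% of all 27305 genes with a promoter in the table and 12.5% of the 8941 tested genes with one. The motif is the sequence that MYC and MYCN recognise. Its place relative to the start was much the same among the stretches shown other than that of EBNA1BP2. For these reasons the 14 stretches of 24 bases are shown. They are written 5′ to 3′ on the gene's own strand with the motif in capitals, ordered from the farthest upstream to the farthest downstream.
EBNA1BP2 (chr1:43172793-43172816, minus strand): attgttggcCACGTGggatcgaag
DDX21 (chr10:68956607-68956630, plus strand): cgggtgtccCACGTGgtccccggc
NAT10 (chr11:34105605-34105628, plus strand): gcgcttgcgCACGTGctgtctacc
UTP20 (chr12:101280086-101280109, plus strand): ttttccgtcCACGTGacccactca
RRP9 (chr3:51941895-51941918, minus strand): ttcagctgcCACGTGagttctgcg
RCL1 (chr9:4792939-4792962, plus strand): gttccaaacCACGTGgacgcgtct
FBL (chr19:39846359-39846382, minus strand): gctcttttcCACGTGcgaaagccc
GNL3 (chr3:52686029-52686052, plus strand): ttcagttcaCACGTGgcgccagcg
PES1 (chr22:30591883-30591906, minus strand): ttggcagggCACGTGcgggaggaa
NOP14 (chr4:2963377-2963400, minus strand): gcggcccggCACGTGtcttagggt
MYBBP1A (chr17:4555343-4555366, minus strand): gccggagcaCACGTGtttcgtgtt
BYSL (chr6:41921518-41921541, plus strand): ttcagtcccCACGTGcgatccttc
GAR1 (chr4:109815784-109815807, plus strand): ccagaggggCACGTGgcgccggtg
NOP2 (chr12:6568242-6568265, minus strand): tccggattgCACGTGgagggccgc

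In all 14 genes the motif lay within 50 bases of a start, from 31 bases upstream in DDX21 to 42 bases downstream in EBNA1BP2. EBNA1BP2 has a pair of starts in the table, each with a different motif in its window. The stretch placed first above holds the motif that lies 237 bases upstream of its start. The motif 42 bases downstream of the other start is too close to the end of its window to be shown with its flanks. Among all promoters in the table that hold the motif, 36.9% of its 2821 positions lay within 50 bases of a start. In the members' windows 93.3% of the 15 positions did, and EBNA1BP2 has a separate position for each of its starts. The share of positions near a start was not counted for tested genes alone. A match describes letters in a window, not a bound site. For 2 members whose levels differed between groups, a longer stretch shows the surroundings of the motif. The stretch of UTP20 is chr12:101279985-101280104 (plus strand) and that of NAT10 is chr11:34105509-34105628 (plus strand).
UTP20: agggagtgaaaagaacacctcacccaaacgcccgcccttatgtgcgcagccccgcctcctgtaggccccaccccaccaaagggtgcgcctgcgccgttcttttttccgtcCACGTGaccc
NAT10: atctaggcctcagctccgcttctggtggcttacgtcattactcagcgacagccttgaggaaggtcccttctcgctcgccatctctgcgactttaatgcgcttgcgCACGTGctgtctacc

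The labelled identity was checked against marker lists. The summed level of 15 neural crest genes was 514 to 594 FPKM in F, 758 to 802 in FSB and 462 to 607 in F_FSB, while the sums for neuroectoderm and endoderm markers were at most 0.412 and 0.533 FPKM in any library. Of these genes, 12 could be tested. In FSB minus F 4 rose (ETS1, TWIST1, TFAP2A and NGFR) and 2 fell (NR2F2 and MSX2), and in F_FSB minus FSB 1 rose and 6 fell. The shares of all tested genes were 28.5% higher and 13.4% lower in FSB minus F, and 13.7% and 28.2% in F_FSB minus FSB. PRRX1, which also marks mesenchyme, had the largest share of the sum, with means of 161, 177 and 206 FPKM. FOXD3, an early crest marker, was at most 0.025 FPKM, and SOX10, a defining marker of early migratory crest, reached 1.69 FPKM in FSB replicate 3 and at most 0.0993 in the other libraries. Depth, estimated roughly from single fragments on low genes, was lowest in F_FSB replicate 2, at 60% of the deepest library, and at least 82.7% in the rest. Over all tested genes, the median log2 change was 0.14 in FSB minus F and -0.13 in F_FSB minus FSB, so the changes of members are also given relative to these medians.

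Most members were highest in the FSB cultures, and no member differed past the threshold between F and the cultures moved from FSB to F. Of the 40 members, 18 rose in FSB relative to F and none fell (limma, BH-adjusted p under 0.05 over all genes tested). The background for these counts was large, since 28.5% of all tested genes rose and 13.4% fell. In F_FSB relative to FSB, 30 members fell and none rose, against a background of 28.2% of tested genes lower and 13.7% higher. The 18 genes that rose with FSB were all among the 30 that were lower in F_FSB. Both comparisons use the same 3 FSB libraries, so that repeat is not independent support. In F_FSB minus F, where no member passed, 0.00757% of tested genes (1 gene) did.

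The median log2 change of the 40 members in FSB minus F was 0.41, which is 0.28 above the median of all tested genes, and 33 members lay above that median. In F_FSB minus FSB the median was -0.52, or -0.39 relative to all tested genes, and 37 members lay below. The sizes of called changes were modest apart from MYCN. In FSB minus F they ran from 0.44 to 0.88 on the log2 scale with MYCN at 2.94, and their standard errors (SE) ran from 0.0965 to 0.181. Scaling the libraries by median ratios brought the median of all genes close to 0 and changed the split of calls. Under that scaling 18.3% of tested genes were higher and 18.6% lower in FSB, and 11 members rose and 1, GAR1, fell. In F_FSB minus FSB it left 20 members lower, against 19.1% of tested genes.

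**Figure D1:**
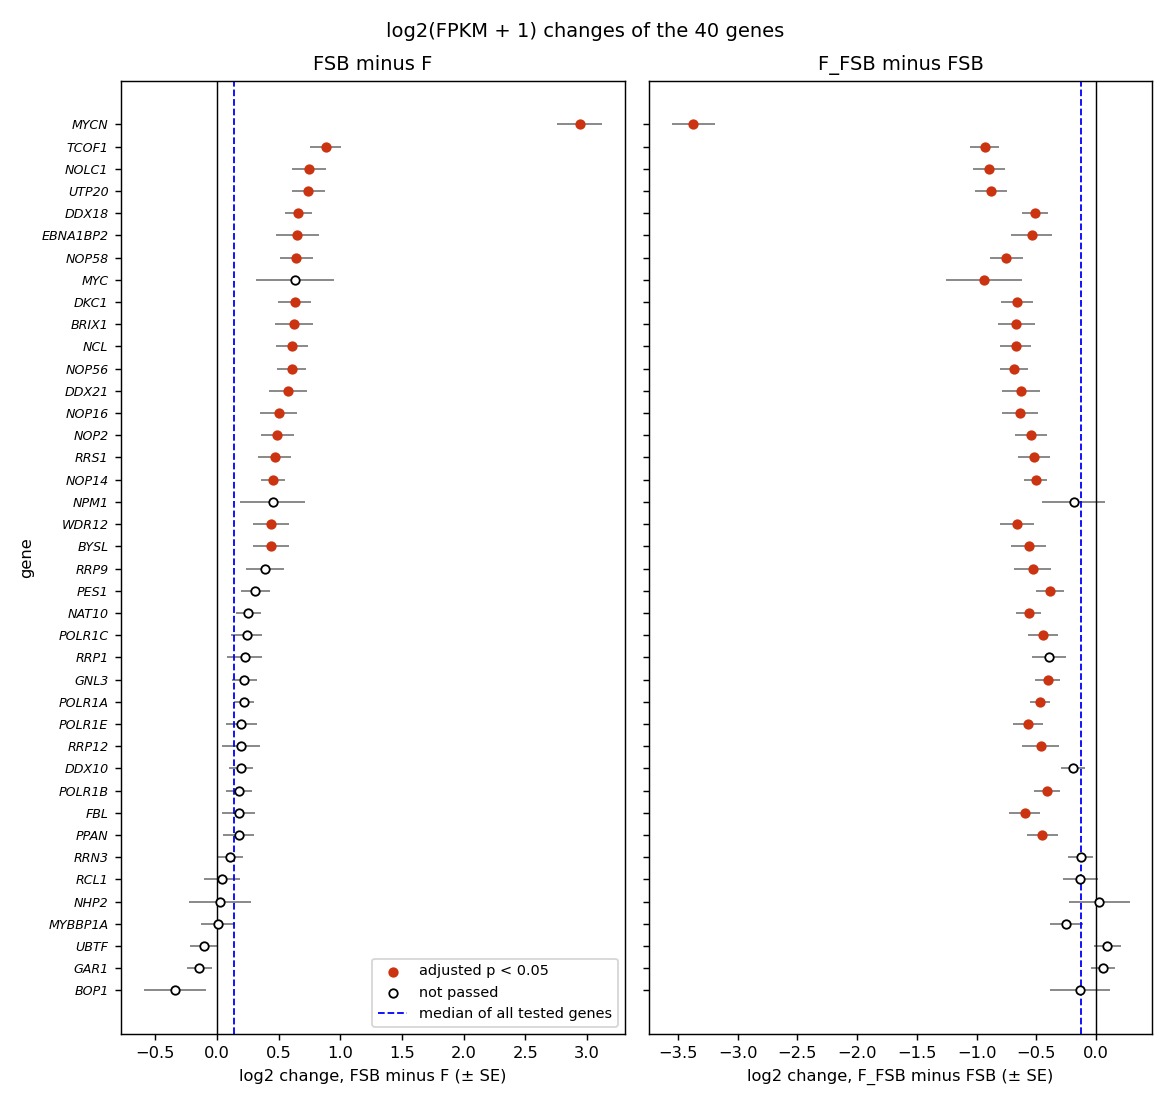
Log2(FPKM + 1) change (x axis) of each of the 40 members (y axis, ordered by the change in FSB minus F) in both comparisons, with bars for the SE, filled points for members that passed, and a dashed line at the median of all tested genes. In FSB minus F 33 members lie above that median, and in F_FSB minus FSB 37 lie below it, with MYCN farthest out at 2.94 and -3.37.

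Counted by libraries rather than by the model, all FSB libraries lay above all F libraries for 20 members, and for none did they lie below. The same held for 38.7% (above) and 19.2% (below) of tested genes. All F_FSB libraries lay below all FSB libraries for 31 members and above for none, against 36.6% and 19.2% of tested genes. The summed level of the 40 members was 1081, 1091 and 1301 FPKM in F, 1641, 1661 and 1450 in FSB, and 1039, 1377 and 1000 in F_FSB. The lowest FSB sum therefore exceeded every sum in the other groups. Abundant members weigh most in these sums, and NCL, NPM1 and FBL had the 3 highest means in each group. The levels of NCL and FBL are uncertain, as described below, and NPM1 had 444 FPKM in F_FSB replicate 2. FPKM are shares of a library's RNA, so in these bulk samples fewer cells that express a gene and less of its RNA per cell cannot be told apart.

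MYCN, the paralogue of MYC that is best known from neural progenitors and neuroblastoma, had the largest change of all members. The gene (chr2:16080683-16087129, GRCh37) had 1.40, 1.93 and 0.975 FPKM in the 3 F libraries and 20.1, 17.5 and 15.1 in the FSB libraries. In F_FSB it had 1.04, 0.840 and 0.512 FPKM. Every FSB library was far above every other library, and the F and F_FSB ranges overlapped. The group means were 1.44 ± 0.480 (F), 17.6 ± 2.50 (FSB) and 0.797 ± 0.266 FPKM (F_FSB; SD, n = 3). The mean level in FSB was 12.2-fold that in F, with a log2 change of 2.94 (SE 0.18; limma, BH-adjusted p = 5.06e-05). It was 22.1-fold that in F_FSB, with a log2 change of -3.37 (limma, BH-adjusted p = 2.79e-05). MYCN overlaps the antisense gene MYCNOS, which was listed at no more than 0.466 FPKM, and the sources used here do not say whether strand was used in quantification.

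MYC, the family member expressed in most dividing cells, overlapped between F and FSB. The gene (chr8:128748315-128753680) had 7.78, 9.07 and 13.8 FPKM in F, 19.0, 21.6 and 9.80 in FSB, and 7.11, 10.5 and 6.42 in F_FSB. FSB replicates 1 and 2 were higher than all other libraries, while FSB replicate 3 lay inside the range of F and below the highest F_FSB library. In FSB minus F the change did not pass (limma, BH-adjusted p = 0.141). Without FSB replicate 3 the log2 change was 0.96 and passed (limma, BH-adjusted p = 0.0285). In F_FSB minus FSB MYC fell by 0.94 on the log2 scale (SE 0.32; limma, BH-adjusted p = 0.0433). That call was lost in each of the 5 fits that left out F replicate 2, FSB replicate 1, FSB replicate 2, F_FSB replicate 1 or F_FSB replicate 3 (limma, BH-adjusted p = 0.0589 to 0.141).

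The balance between the paralogues differed between the groups. MYCN made up 15.3%, 17.6% and 6.60% of the summed FPKM of MYC and MYCN in F, and 51.3%, 44.8% and 60.6% in FSB. In F_FSB its share was 12.7%, 7.41% and 7.38%. The lowest FSB share thus exceeded every share in the other groups. Summed over both genes the level was 11.7 ± 2.85 (F), 34.4 ± 8.22 (FSB) and 8.81 ± 2.28 FPKM (F_FSB; SD, n = 3). FPKM are scaled to transcript length, which is what allows the levels of both genes to be compared and added.

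**Figure D2:**
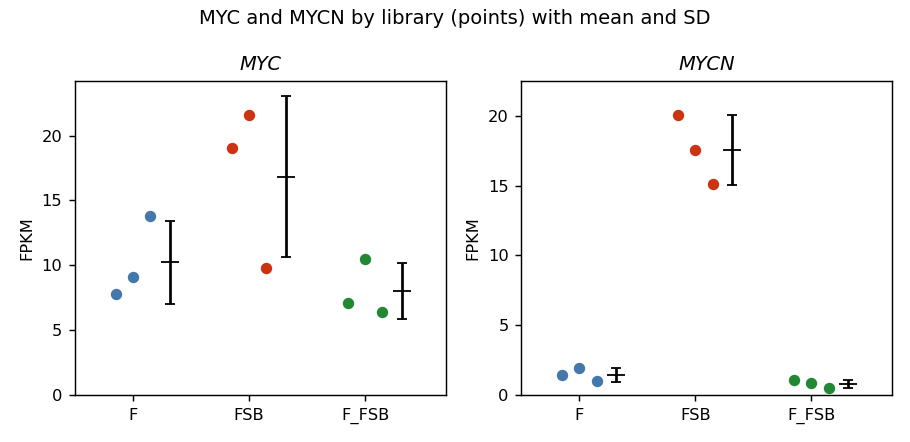
FPKM (y axis) of MYC and MYCN by group (x axis) in each of the 9 libraries, with a point for each library, in order of replicate number, and the group mean and SD beside them. MYCN separates FSB from F and F_FSB, whereas FSB replicate 3 lies within the F range for MYC.

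TCOF1 encodes treacle, the nucleolar protein that recruits RNA polymerase I factors to ribosomal DNA. The gene (chr5:149737202-149779871) had 12.2, 11.5 and 13.3 FPKM in F, 26.8, 25.2 and 19.3 in FSB, and 11.8, 12.6 and 11.2 in F_FSB. All FSB libraries lay above all others, and FSB replicate 3 was the lowest of the 3. TCOF1 rose 1.92-fold in the mean in FSB relative to F, from 12.3 ± 0.883 to 23.8 ± 3.96 FPKM (SD, n = 3), with a log2 change of 0.88 (SE 0.12; limma, BH-adjusted p = 0.00129). In F_FSB the mean was 11.9 ± 0.737 FPKM, a log2 change of -0.93 from FSB (limma, BH-adjusted p = 0.00103). This was the second largest change among the members that rose in FSB.

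Of the 7 members that are subunits or regulators of RNA polymerase I, TCOF1 was the 1 that rose in FSB minus F, and 5 fell in F_FSB minus FSB. The shares of all tested genes were 28.5% and 28.2%. Whether TCOF1 differed from the other 6 in its response was not tested. POLR1B, the second largest subunit (chr2:113299492-113334727), had 3.95, 4.67 and 5.51 FPKM in F, 5.48, 5.45 and 5.34 in FSB, and 4.03, 3.79 and 3.66 in F_FSB. Its FSB libraries were close together and overlapped those of F, but lay above all F_FSB libraries. In FSB minus F it did not pass (limma, BH-adjusted p = 0.216), and in F_FSB minus FSB it fell by 0.41 (SE 0.11; limma, BH-adjusted p = 0.0161). That call was lost without FSB replicate 1 or 2.

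POLR1A, the largest subunit, had means of 10.9, 12.9 and 8.99 FPKM in F, FSB and F_FSB, and it fell by 0.47 in F_FSB minus FSB (limma, BH-adjusted p = 0.00318). POLR1C, which RNA polymerase I shares with RNA polymerase III, had means of 7.73, 9.29 and 6.57 FPKM and fell by 0.45 (limma, BH-adjusted p = 0.021). POLR1E, the homologue of a yeast polymerase-associated factor, fell by 0.57 (limma, BH-adjusted p = 0.00776). The call of POLR1C was lost without FSB replicate 1, FSB replicate 2 or F_FSB replicate 1. UBTF, the upstream binding factor that keeps ribosomal DNA open, had means of 36.1, 33.6 and 35.9 FPKM and passed in no comparison. RRN3, the initiation factor that connects the polymerase with the promoter, had means of 7.74, 8.42 and 7.58 FPKM and passed in none either. RRN3 has pseudogene copies, listed at no more than 2.49 FPKM, that could share reads with it.

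Among the abundant scaffold and chaperone proteins of the nucleolus, 2 of 4 rose in FSB and the same 2 fell in F_FSB (28.5% and 28.2% of tested genes). NCL, nucleolin (chr2:232319459-232329205), was the most abundant member in F and FSB. It had 239, 247 and 290 FPKM in F, 437, 392 and 358 in FSB, and 237, 276 and 231 in F_FSB. No FSB library overlapped another group. All 9 deposited values of NCL lay above the interval that Cufflinks gives for them in the same table (217 to 229 in F replicate 1), so its level and its rank among members are uncertain. The mean rose from 259 ± 27.6 to 396 ± 39.4 FPKM (SD, n = 3), with a log2 change of 0.61 (SE 0.13; limma, BH-adjusted p = 0.0073), and in F_FSB it was 248 ± 24.3, a log2 change of -0.67 (limma, BH-adjusted p = 0.00463).

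NPM1, nucleophosmin, a chaperone of ribosomal proteins (chr5:170814708-170837888), had 208, 238 and 238 FPKM in F, 293, 336 and 307 in FSB, and 221, 444 and 208 in F_FSB. All FSB libraries were above all F libraries, but F_FSB replicate 2 was higher than any other library. The change did not pass in FSB minus F (limma, BH-adjusted p = 0.203) or in F_FSB minus FSB (limma, BH-adjusted p = 0.592). Without F_FSB replicate 2, the shallowest library, it passed in both, at BH-adjusted p = 0.00953 and, for a log2 change of -0.54, at BH-adjusted p = 0.00865 (limma). NHP2 was also highest in that library, with 53.6 FPKM against 28.1 and 30.3 in the other F_FSB libraries. In a fit of F and FSB alone, which leaves out all F_FSB libraries, NPM1 rose in FSB (limma, BH-adjusted p = 0.0147). The part of depth in these values was not tested.

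NOLC1, a chaperone of guide RNA particles that is also called Nopp140 (chr10:103911933-103923627), had the third largest log2(FPKM + 1) increase in FSB, although UTP20 ranked above it by the ratio of means. It had 23.4, 20.8 and 25.8 FPKM in F, 42.3, 41.4 and 35.6 in FSB, and 21.7, 24.1 and 17.3 in F_FSB. The groups did not overlap between FSB and the others. The log2 change was 0.75 in FSB minus F (SE 0.14; limma, BH-adjusted p = 0.00375) and -0.90 in F_FSB minus FSB (limma, BH-adjusted p = 0.00165). MYBBP1A, a MYB-binding nucleolar protein, had means of 12.8, 12.7 and 10.5 FPKM in F, FSB and F_FSB and passed in neither comparison.

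**Figure D3:**
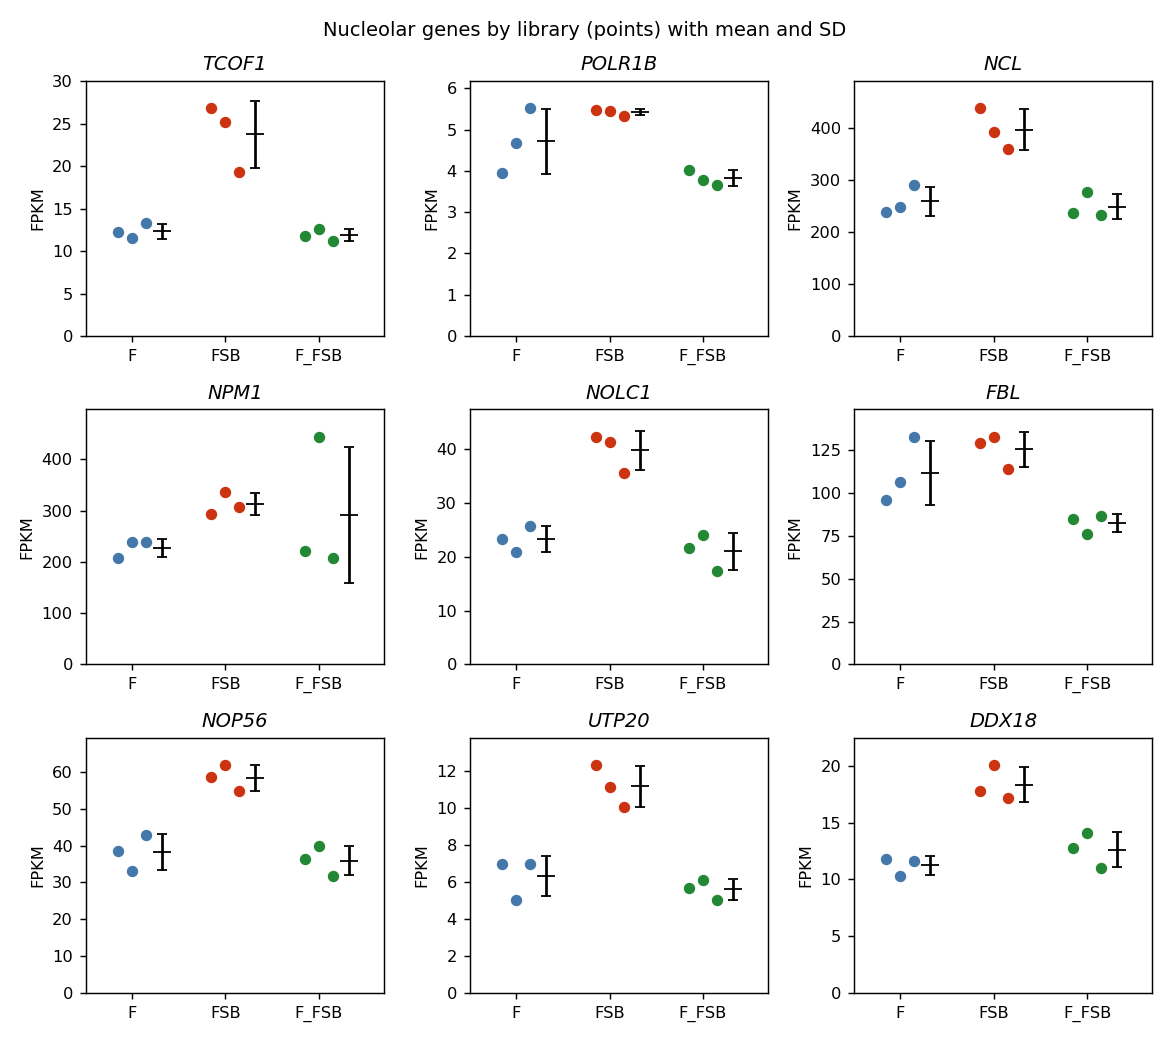
FPKM (y axis) of 9 members by group (x axis), with a point for each library, in order of replicate number, and the group mean and SD beside them. For TCOF1, NCL and NOLC1 no FSB library overlaps the others, while for NPM1 the highest point is F_FSB replicate 2 at 444 FPKM and for FBL and POLR1B the F and FSB points overlap.

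In the guide RNA particles, 3 of 6 members rose in FSB and 4 of 6 fell in F_FSB (28.5% and 28.2% of tested genes). NOP56, a core protein of box C/D particles (chr20:2633254-2639039), had 38.5, 33.2 and 42.9 FPKM in F, 58.7, 61.8 and 54.9 in FSB, and 36.3, 39.8 and 31.8 in F_FSB. The FSB libraries lay above all others. Its log2 change was 0.61 in FSB minus F (SE 0.12; limma, BH-adjusted p = 0.00497) and -0.69 in F_FSB minus FSB (limma, BH-adjusted p = 0.00273). NOP58, its partner in the same particle, rose by 0.64 and then differed by -0.75 (limma, BH-adjusted p = 0.00681 and 0.00336). In FSB, but in no other group, values of both genes lay above their own Cufflinks interval. This held for NOP58 in every FSB library and for NOP56 in FSB replicates 1 and 2. DKC1, dyskerin, the pseudouridine synthase of H/ACA particles, rose by 0.63 and differed by -0.66 (limma, BH-adjusted p = 0.00727 and 0.00565).

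FBL, fibrillarin, the methyltransferase of the box C/D particle (chr19:40325093-40337054), passed in F_FSB minus FSB but, unlike its partners NOP56 and NOP58, not in FSB minus F. It had 95.9, 106 and 132 FPKM in F, 129, 133 and 114 in FSB, and 84.5, 76.2 and 86.5 in F_FSB. F and FSB overlapped, because F replicate 3 was nearly as high as the highest FSB library, and all F_FSB libraries lay below all F libraries. The change did not pass in FSB minus F (limma, BH-adjusted p = 0.312), while in F_FSB minus FSB FBL fell by 0.60 (SE 0.13; limma, BH-adjusted p = 0.00781). All 9 values of FBL lay above their own Cufflinks interval (76.0 to 86.0 in F replicate 1), which leaves its level uncertain. Whether the response of FBL differed from that of NOP56 or NOP58 was not tested.

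GAR1 and NHP2, the other members of the H/ACA particle on the list, passed in no comparison. GAR1 had 20.8, 20.1 and 24.2 FPKM in F, 19.8, 20.4 and 18.3 in FSB, and 19.2, 22.7 and 19.2 in F_FSB. Those values overlapped between all groups, with BH-adjusted p = 0.281 for GAR1 in FSB minus F (limma). It passed as lower, at -0.29, after scaling by median ratios (limma, BH-adjusted p = 0.0449) and at -0.31 after quantile normalization (limma, BH-adjusted p = 0.0317). NHP2 had means of 35.0, 35.4 and 37.3 FPKM in F, FSB and F_FSB.

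On the branch that makes the 40S subunit, 3 of 8 members rose in FSB and 6 of 8 fell in F_FSB (28.5% and 28.2% of tested genes). UTP20, a large scaffold of the small subunit processome (chr12:101673905-101780397), had 6.96, 5.05 and 6.98 FPKM in F, 12.3, 11.1 and 10.1 in FSB, and 5.69, 6.10 and 5.02 in F_FSB. Every FSB library was above every other library. Its mean rose 1.77-fold, with a log2 change of 0.74 (SE 0.13; limma, BH-adjusted p = 0.00359), and it was 2.00-fold higher in FSB than in F_FSB, with a log2 change of -0.88 (limma, BH-adjusted p = 0.00164). NOP14, a component of the same processome that overlaps C4orf10 (up to 3.01 FPKM), rose by 0.46 (limma, BH-adjusted p = 0.00705) and differed by -0.50 in F_FSB minus FSB (limma, BH-adjusted p = 0.00443). BYSL, bystin, which acts on late 40S precursors, rose by 0.44 (limma, BH-adjusted p = 0.0444), although its F and FSB libraries overlapped and the call was lost without any 1 of 7 libraries, the exceptions being F replicate 3 and FSB replicate 3.

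NAT10, the acetyltransferase of 18S ribosomal RNA, did not pass in FSB minus F (limma, BH-adjusted p = 0.0819) and fell by 0.57 in F_FSB minus FSB (limma, BH-adjusted p = 0.00379). Its means were 13.9, 16.6 and 10.9 FPKM in F, FSB and F_FSB, and all F_FSB libraries lay below all F libraries. RRP9, which binds the U3 guide RNA, had means of 7.48, 10.0 and 6.67 FPKM and fell by 0.53 in F_FSB minus FSB (limma, BH-adjusted p = 0.0243), a call that was lost without FSB replicate 1, 2 or 3 or F_FSB replicate 3. RRP12, which takes part in subunit export, fell by 0.46 (limma, BH-adjusted p = 0.0427), and its call held without F replicate 2 or 3 and was lost without any other library. RCL1 and the helicase DDX10 passed in neither comparison, with means of 3.66 to 4.06 and 8.34 to 9.70 FPKM.

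On the branch that makes the 60S subunit, 7 of 12 members rose in FSB and 10 of 12 fell in F_FSB (28.5% and 28.2% of tested genes). DDX18, an RNA helicase of 60S precursors (chr2:118572255-118589953), had 11.8, 10.3 and 11.6 FPKM in F, 17.8, 20.0 and 17.1 in FSB, and 12.8, 14.1 and 11.0 in F_FSB. The FSB libraries were separate from both other groups. Its log2 change was 0.66 in FSB minus F (SE 0.11; limma, BH-adjusted p = 0.00244) and -0.51 in F_FSB minus FSB (limma, BH-adjusted p = 0.00697). BRIX1, EBNA1BP2, NOP16 and RRS1, which take part in 60S assembly, and NOP2, a methyltransferase of 28S ribosomal RNA, rose by 0.62, 0.65, 0.50, 0.47 and 0.49, and each was lower in F_FSB than in FSB. The level of NOP16 is uncertain, since all its values lay above their own Cufflinks interval. Values of BRIX1 and EBNA1BP2 also did so in every FSB library and in some of the others. Leaving out F replicate 2, FSB replicate 1 or FSB replicate 2 ended the call of EBNA1BP2, NOP2, RRS1 and NOP16 in FSB minus F, leaving out F replicate 1 also ended that of NOP16, and leaving out FSB replicate 2 ended that of BRIX1. Their decreases in F_FSB minus FSB were lost for EBNA1BP2 without F replicate 3, FSB replicate 1 or 2, or F_FSB replicate 1 or 3, for NOP2 without FSB replicate 2, and for RRS1 without FSB replicate 2 or F_FSB replicate 3.

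PES1, BOP1 and WDR12 form 1 complex, called PeBoW, and passed unequally. WDR12 rose by 0.44 in FSB (limma, BH-adjusted p = 0.0386) and differed by -0.66 in F_FSB minus FSB (limma, BH-adjusted p = 0.00744). PES1 did not pass in FSB minus F (limma, BH-adjusted p = 0.0621) and fell by 0.38 in F_FSB minus FSB (limma, BH-adjusted p = 0.0296). The call of PES1 was lost without FSB replicate 1, FSB replicate 2, F_FSB replicate 1 or F_FSB replicate 3, and that of WDR12 in FSB minus F without F replicate 1 or 2, any FSB replicate or F_FSB replicate 1.

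BOP1, the remaining PeBoW gene, cannot be read alone, because the locus SCXA lies within it on chromosome 8. BOP1 had 13.9, 12.2 and 26.3 FPKM in F, 14.6, 12.9 and 11.2 in FSB, and 12.3, 12.2 and 10.4 in F_FSB. SCXA (chr8:145490603-145492131), a scleraxis gene of tendon progenitors, had 6.21, 4.16 and 18.0 FPKM in F, 0.328, 0.228 and 0.174 in FSB, and 3.81, 5.86 and 2.26 in F_FSB. F replicate 3 was the highest library for both genes. BOP1 passed in no comparison (limma, BH-adjusted p = 0.308 in FSB minus F and 0.689 in F_FSB minus FSB). The part of fragments from SCXA in the BOP1 values was not tested.

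Among the rest of the 60S branch, GNL3, nucleostemin, a GTPase of stem cell nucleoli, had means of 35.9, 42.0 and 31.6 FPKM and fell by 0.40 in F_FSB minus FSB (limma, BH-adjusted p = 0.0156). PPAN fell by 0.45 (limma, BH-adjusted p = 0.024), but shares its locus with the read-through gene PPAN-P2RY11, which was listed at up to 1.35 FPKM. RRP1 did not pass in F_FSB minus FSB (limma, BH-adjusted p = 0.0556). Calls of GNL3 and PPAN were lost without FSB replicate 1 or FSB replicate 2, and that of PPAN also without F_FSB replicate 1 or 2.

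DDX21, a helicase that works in the nucleolus and at RNA polymerase II genes (chr10:70715892-70744279), had 25.2, 20.0 and 29.4 FPKM in F, 39.7, 40.3 and 31.9 in FSB, and 23.0, 26.9 and 21.4 in F_FSB. All FSB libraries were above all others, with FSB replicate 3 closest to F replicate 3. Its log2 change was 0.58 in FSB minus F (SE 0.16; limma, BH-adjusted p = 0.0203) and -0.63 in F_FSB minus FSB (limma, BH-adjusted p = 0.014). The first call was lost without F replicate 2 and both calls were lost without FSB replicate 1 or 2.

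The members tended to move together from culture to culture within a medium as well. F replicate 3 was the highest of the 3 F libraries for 34 of the 40 members, against 34.1% of tested genes. FSB replicate 3 was the lowest FSB library for 36 of 40, against 33.7% of tested genes. In F_FSB, replicate 2 was the highest for 28 members (38.6% of tested genes) and replicate 3 the lowest for 29 (45.8%). The members of a library share its depth and scaling, so these counts describe the 9 libraries and carry no test. The median SD of log2 values between cultures was 0.207 for members and 0.146 for all tested genes in F, 0.118 and 0.122 in FSB, and 0.143 and 0.167 in F_FSB.

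**Figure D4:**
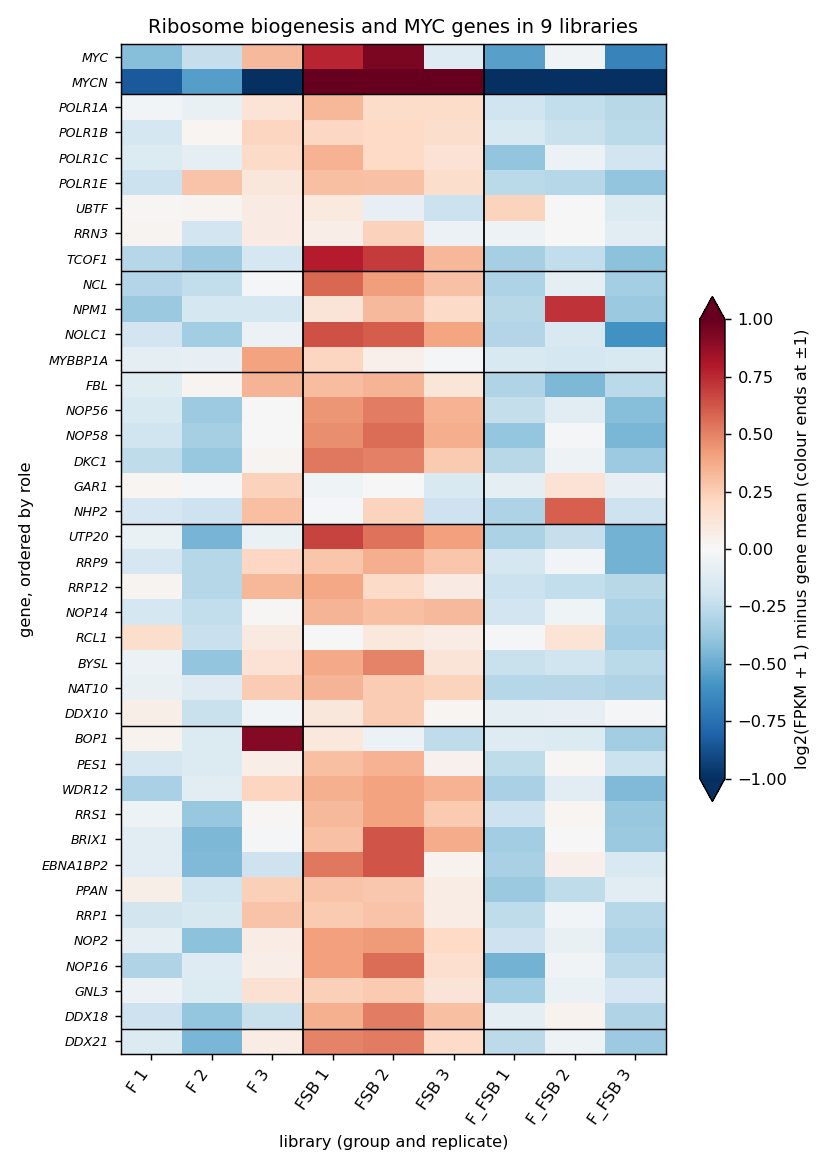
Log2(FPKM + 1) of each of the 40 members in the 9 libraries (x axis) minus the member's mean, as colour that ends at ±1, with members grouped by role (y axis). FSB replicates 1 and 2 are high for most members, FSB replicate 3 is the lowest FSB library for 36 of 40, and F replicate 3 is the highest F library for 34 of 40.

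Over all 9 libraries, the highest value fell in FSB for 31 members, in F for 6 and in F_FSB for 3. The lowest fell in F_FSB for 27 members, in F for 11 and in FSB for 2. Extremes were not counted in this way over all tested genes. The median log2 change of all tested genes was itself 0.14 in FSB minus F and -0.13 in F_FSB minus FSB. The difference between the cultures kept in F and those moved there from FSB was small. Of the 40 members, 35 had a negative log2 change in F_FSB minus F, with a median of -0.12. None passed (limma, BH adjustment), and 5 had an unadjusted p under 0.05, against 9.04% of tested genes. These were MYCN, POLR1A, POLR1E, FBL and NAT10, named because their number is small and after their values were seen. All F_FSB libraries lay below all F libraries for 5 members, POLR1A, POLR1E, MYBBP1A, FBL and NAT10, against 6.76% of tested genes, and above for none, against 6.28%. Without F replicate 3, the library in which most members were highest, the median of the members was -0.014.

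The members were also compared with the E-box groups introduced above. Of the 14 members with CACGTG in the promoter window, 6 rose in FSB and 11 fell in F_FSB, with median log2 changes of 0.35 and -0.54. Of the 17 without it, 7 rose and 11 fell, with medians of 0.24 and -0.45. Of the 9 without a promoter entry, 5 rose and 8 fell. The shares of all tested genes were 28.5% higher and 28.2% lower. RCL1, MYBBP1A and GAR1 hold the motif and passed in neither comparison. The difference between these groups was not tested.

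A feature that the choice of genes did not use is that some members carry small nucleolar RNA genes in their own locus. This held for 6 of 40 members (15%), against 1.13% of 13137 tested genes. They were NOP56 with 5 such loci, NCL, NOP58 and GNL3 with 3 each, and PPAN and DKC1 with 2 each. All 6 host genes fell in F_FSB minus FSB (28.2% of tested genes), and NOP56, NCL, NOP58 and DKC1 rose in FSB minus F (28.5%). Of all 40 members, 75% fell and 45% rose in the same comparisons. Whether host genes differed from the other members was not tested. FPKM of the small RNAs themselves are unreliable in these tables and are not reported.

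Further genes of the same pathways, from lists that hold no member, are given against the same background of 28.5% of tested genes higher in FSB and 28.2% lower in F_FSB. Of 10 other RNA polymerase I subunits and promoter factors, 4 rose in FSB and 6 fell in F_FSB. BAZ2A, a subunit of the nucleolar remodelling complex that silences ribosomal DNA, had 10.4 ± 0.842 (F), 25.2 ± 1.59 (FSB) and 10.8 ± 0.362 FPKM (F_FSB; SD, n = 3). TWISTNB, a polymerase I subunit, had means of 7.71, 17.5 and 7.07. POLR1D, another polymerase gene of Treacher Collins syndrome, had means of 33.8, 36.8 and 32.5 FPKM and passed in no comparison. Of 37 other processome and 40S factors, 8 rose in FSB and 17 fell in F_FSB, with NOL11 at means of 16.9, 25.4 and 17.5 FPKM. Of 40 other 60S factors, 16 rose and 20 fell, with LAS1L, which takes part in spacer processing, at 12.4, 21.3 and 11.6.

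None of these 3 lists had a gene that fell in FSB minus F. Relative to all tested genes, their median log2 changes in FSB minus F were 0.11, 0.08 and 0.15, against 0.28 for the 40 members. Of 10 genes that assemble guide RNA particles, 5 rose and 7 fell in F_FSB, with RUVBL1, an ATPase of the assembly machinery, at 24.8, 44.7 and 25.5 FPKM. Of 14 genes of the RNA exosome, which trims ribosomal precursors, 8 rose and 9 fell in F_FSB, with EXOSC8 at 11.5, 25.6 and 10.5 FPKM. Of 20 tested genes of RNA polymerase III and 5S ribosomal RNA, 9 rose, 2 fell and 10 were lower in F_FSB.

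The partners and antagonists of MYC did not share 1 direction. Of 8 tested genes in this network, 1 rose and 1 fell in FSB (28.5% and 13.4% of all tested genes). MAX, the obligate partner of MYC and MYCN, had 28.7 ± 1.62 (F), 22.3 ± 1.42 (FSB) and 29.0 ± 1.45 FPKM (F_FSB; SD, n = 3), so it was lowest where MYCN was highest. It fell by 0.35 in FSB minus F (limma, BH-adjusted p = 0.00933) and rose by 0.36 in F_FSB minus FSB (limma, BH-adjusted p = 0.00748). MGA, a MAX-binding protein, rose from 6.12 to 8.33 FPKM in FSB (limma, BH-adjusted p = 0.0473). The MAX-binding antagonist MXD4 had means of 27.2, 22.7 and 34.3 FPKM and rose in F_FSB minus FSB (limma, BH-adjusted p = 0.0388).

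Of 19 tested genes known as MYC targets outside the nucleolus, 10 rose in FSB and none fell, and in F_FSB minus FSB 10 fell and none rose. In each comparison the other 9 passed in neither direction, and the genes that passed were not all the same in both. Of all tested genes, 28.5% rose in FSB and 28.2% fell in F_FSB. CCND2, cyclin D2, had 4.49 ± 2.35 (F), 64.1 ± 4.91 (FSB) and 11.9 ± 7.07 FPKM (F_FSB; SD, n = 3), and FKBP4 had means of 9.37, 20.2 and 9.61. ODC1, ornithine decarboxylase, had means of 53.6, 82.4 and 46.9 FPKM. SRM, the spermidine synthase, passed in neither comparison, with means of 69.3, 55.7 and 64.0 FPKM, and neither did LDHA, lactate dehydrogenase A, with 301, 278 and 411.

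Lists for proliferation and for other cell types were counted in the same comparisons, where 28.5% of tested genes rose in FSB and 28.2% fell in F_FSB. Of 20 genes of DNA replication and mitosis, 19 rose in FSB and 19 fell in F_FSB, with MCM7, a subunit of the replicative helicase, at 35.5, 103 and 30.8 FPKM and AURKB at 19.5, 51.4 and 17.6. The summed level of 10 pluripotency markers was 5.55 to 15.3 FPKM in F, 111 to 135 in FSB and 6.15 to 10.3 in F_FSB. Most of it was LIN28A, an RNA-binding protein of stem and early progenitor cells, with means of 0.011, 79.5 and 0.030 FPKM, while the defining markers POU5F1, NANOG and SOX2 reached at most 1.15, 0.247 and 0.505 FPKM in any library. Of these 10 markers, 6 could be tested, 4 rose in FSB and 5 fell in F_FSB. The summed level of 7 epithelial markers was 37.0 to 128 FPKM in F, 109 to 215 in FSB and 83.2 to 193 in F_FSB, so the groups overlapped. Of these 7 markers, 4 could be tested, 2 (CLDN6 and KRT8) rose in FSB and 1 (CLDN6) fell in F_FSB. The part of cell proliferation or of cell composition in the changes of the members was not tested.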

How the data were processed

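The values are FPKM from gene tables of Cufflinks, 1 table of 25593 loci per library, as the authors deposited them and per the file headers. Reads had been mapped to GRCh37 and quantified with TopHat2 2.0.12 and Cufflinks 2.1.1, tools that are named in the submitters' processing notes. The sources used here give neither their options nor the use of strand. The tables list loci in different orders and were joined by symbol and position. No pair of libraries shared more than 0.00586% of nonzero values. Loci with a status other than OK in any library (95) were left out, and the 13216 genes that reached 1 FPKM in 3 libraries were tested. Values were analysed as log2(FPKM + 1), which understates the change of low genes. One limma 3.58.1 fit (R 4.3.3) of group means over all 9 libraries used a mean-variance trend and two-sided tests. P-values were adjusted over these genes after Benjamini-Hochberg (BH), with 0.05 as the threshold. The script was tested on simulated data. Each group was compared with each other group, so the comparisons share libraries. The tables hold no counts, so depth is known only as a rough relative value from 2 to 9 low genes per library. The interval that Cufflinks gives for a member's value had a median half-width of 9.53% of the value, and 42 of the 360 values, in 7 genes, lay outside their own interval. NCL, FBL and NOP16 did so in all 9 libraries, and BRIX1, EBNA1BP2, NOP58 and NOP56 in 6, 4, 3 and 2. For these last 4 genes the values lay above the interval. They included all 3 FSB libraries for BRIX1, EBNA1BP2 and NOP58, and FSB replicates 1 and 2 for NOP56. NOP58 and NOP56 had no such value in another group. The part of this in the increases of these genes in FSB was not tested.

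Named genes were MYC, MYCN, TCOF1, NCL, NPM1, FBL and POLR1B, the member of each role with the smallest adjusted p, and, from each other list, up to 2 genes among the 2 with the smallest adjusted p in FSB minus F. Further members are given by their values as part of the full list. POLR1D, MXD4, ODC1, SRM, LDHA, SOX10, SCXA and the crest genes beside ETS1 and TWIST1 were named after their values were seen. The members, roles and lists were chosen with earlier results of these data known. Alternatives changed the pseudocount (0.1), the filter (none, or FPKM of 5), the scaling (quantile, median ratios, equal sums), the libraries and the model. Scaling to equal sums is sensitive to single high loci. In F_FSB replicate 2 the locus MIR4461 had 111389 of 506146 summed FPKM, against 1283 to 2479 FPKM in the other libraries. Under equal sums the median log2 change of all tested genes in F_FSB minus F was -0.123, against -0.002 in the main fit. Promoters came from RefSeq (GRCh38.p14). Tables were joined in Python 3.11.15 with pandas 2.3.3, and figures were drawn with matplotlib 3.10.9.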

Additional observations from a re-analysis of the deposited data

How the results depend on the processing

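Across the 18 alternatives, no called member reversed direction. Of the 18 increases in FSB minus F, 10 held under every alternative (MYCN, TCOF1, NOLC1, UTP20, DDX18, NOP58, DKC1, NCL, NOP56 and NOP14), and of the 30 decreases in F_FSB minus FSB, 17 did. With scaling by median ratios 11 members rose and 1 fell in FSB minus F, beside 2424 and 2461 of all 13216 tested genes. With quantile normalization 12 rose and 1 fell, beside 2636 and 2316. Leaving out 1 library at a time gave 10 to 22 members higher in FSB minus F and 17 to 31 lower in F_FSB minus FSB. The lowest counts came without FSB replicate 2, and the highest of the first comparison without F replicate 3. The counts over all tested genes moved as well. In the main fit 3763 were higher in FSB minus F and 3722 lower in F_FSB minus FSB. These counts were 2644 and 2766 without FSB replicate 2, and 3128 and 3584 without F replicate 3. The log2 change of NPM1 in F_FSB minus FSB ran from -0.54 without F_FSB replicate 2 to 0.0083 without F_FSB replicate 3. With a replicate block, 15 members rose and 25 were lower, beside 3261 and 3324 of all tested genes. Deviations of libraries with the same number correlated at -0.136 to 0.292, and those with different numbers at -0.230 to 0.127. With so few libraries, these values cannot settle whether the numbers pair the cultures. The decrease of MYC was also lost under median ratios, quantile normalization, the replicate block, no filter and a fit of only the groups compared. In F_FSB minus F no member passed under any alternative, while the count over all genes went from 1 to 77 without F replicate 1. Depth limits precision most in F_FSB replicate 2, and MYCN had the widest median interval, at 26.8% of its value.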

Other observations

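Stabilisation of p53 is a known response to disturbed ribosome production, and 12 p53 target genes were therefore looked at beside the members. In FSB minus F 4 rose and 1 fell, and in F_FSB minus FSB 5 rose and 1 fell. Of all tested genes, 28.5% rose and 13.4% fell in the first comparison, and 13.7% rose and 28.2% fell in the second. ZMAT3, an RNA-binding p53 target, had 20.3 ± 2.76 (F), 5.73 ± 0.179 (FSB) and 23.0 ± 3.78 FPKM (F_FSB; SD, n = 3), the opposite order to MYCN. CDKN1A, the cell cycle inhibitor p21, had means of 62.9, 39.2 and 106 FPKM, and it rose in F_FSB minus FSB (limma, BH-adjusted p = 0.0066) but did not pass in FSB minus F (limma, BH-adjusted p = 0.0829). BBC3, the pro-apoptotic gene PUMA, had means of 2.35, 4.34 and 3.95 FPKM. MDM2, the main inhibitor of p53, had means of 13.4, 14.5 and 16.0 FPKM and passed in no comparison. CDKN1A and MDM2 were named after their values were seen.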
